A study of Mus musculus with 6 samples.

Results

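The antiviral effector arm of the interferon response was examined as a panel of 54 genes in CT26, a mouse colon carcinoma line, and in ICB-resistant clones derived from it. The panel was defined by name, as genes whose products act on viral RNA, virus entry or virus assembly or are induced with them, and its members were matched by symbol to the 53801 genes listed in each table. No measured value entered the rule, but the members were chosen with earlier results of these data known. All 54 symbols were found, 53 members were expressed highly enough to be tested, and Slfn5 was not.

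RNA-seq was performed in the study on 3 lines, each with 2 libraries (A and B), to ask how clones that resist immune checkpoint blockade (ICB) differ from the line they came from. The parental line was CT26 of the BALB/c strain that carried a viral library of DNA barcodes, was selected with puromycin and was recovered in bulk from established tumours. B04 and B64 carried the same barcode vector and were each grown from 1 cell isolated from such a tumour, so each stands for 1 clone, and the labels call both resistant to anti-PD1. The study isolated the clones after ICB treatment had enriched them in mice, and the labels list no treatment of the cells in culture. The sample titles describe tumours whereas the methods describe RNA from cultured lines in duplicate. Whether the duplicates were separate cultures is not stated, so the p-values below measure the spread between these libraries, which may be technical.

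Interferons are secreted when cells sense viral nucleic acid or other danger signals. Type I interferon acts through the receptor IFNAR and the kinases JAK1 and TYK2 on transcription factors that bind the interferon-stimulated response element (ISRE), whereas interferon gamma acts mainly at gamma-activated sites (GAS). The effector genes they switch on degrade or sequester viral RNA, block entry and budding, and modify proteins with the ubiquitin-like protein ISG15, and many tumour lines keep part of this program active without any virus.

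Libraries held between 19409204 and 23472012 expected counts, and their size factors ran from 0.8829 to 1.0964. Fragment length, estimated as the difference between gene length and effective gene length, was 276.6 to 277.3 bases in parental libraries and 220.8 to 246.2 in B64, whereas B04 held 1 library of each kind (271.8 in A and 225.2 in B). Fragment length thus moved with the lines, and a fit with fragment-length class as a block is given beside each comparison. The effect of this block is estimated from B04 A against B04 B alone, 1 library each. All parental libraries fall in the long class and all B64 libraries in the short class. In B64 against parental, fragment length and line therefore cannot be told apart, and fewer calls under the block do not show which one matters. The tissue label was checked against 4 marker lists. Of 15 leukocyte markers, 13 stayed under a TPM (RSEM's transcript level scaled by length and library total) of 1 in all libraries and the pan-leukocyte gene Ptprc had a mean TPM of 0.005 in each line. The other two were S100a8, which reached a TPM of 1.26 in 1 B04 library, and Cd68, a lysosomal protein abundant in macrophages, with 188 and 170 normalized counts in parental cells, 187 and 170 in B04 and 729 and 646 in B64. The B cell gene Cd79a was called lower in B64 by DESeq2 and not by edgeR, with 7.63 and 13.1 normalized counts in parental cells and 0 in both B64 libraries. The summed TPM of leukocyte markers was 40.31 and 36.70 in B64 against 11.12 to 12.69 in the other libraries, but without Cd68 it was 0.69 and 0.64 in B64 against 0.70 to 1.80. Endothelial markers summed to a TPM of at most 0.10 and erythroid markers to at most 2.30. Of 8 colon epithelial markers, 5 stayed under a TPM of 1 in all libraries, among them Epcam, Cdh1 and Vil1, so these defining epithelial genes were at or near 0, whereas the keratins Krt18 and Krt20 were detected and were higher in B64 (log2 fold change 0.73 ± 0.16 (SE) and 1.40 ± 0.14). Cdx2, an intestinal transcription factor, had 33.4 and 22.4 normalized counts in parental cells and 0 in all 4 clone libraries, which edgeR called lower in each clone and DESeq2 did not. The part of these markers in the results was not tested. In bulk RNA, more cells that express a gene and more RNA per cell cannot be told apart.

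The promoters of the members give the sequence context. RefSeq promoter entries (GRCm38.p6, the assembly of mm10; 250 bases before to 50 after each start, 300 in all) were found for 43 of 54 members. The ISRE core, GAAANNGAAA on either strand, occurred in the window of 17 of these 43 members (39.5%), compared with 3.99% of all 27025 genes with an entry. The GAS core, TTCNNNGAA on either strand, occurred in 9 members (20.9%) compared with 9.55% of all genes. Matches of 1 motif that overlap each other were each counted, and neither motif was required to be bound. The lines below show ISRE core sites of members that were later called higher in B64 and lower in B04. Of 12 such members with a promoter entry, 6 held a core and are shown, with sites from both annotated starts of Trim30a. The windows of Oasl1, Oasl2, Samd9l, Trim25, Sp100 and Ifi44 held none. Sites of the pair Ifit3 and Ifit3b are also shown. Each is read 5′ to 3′ on the strand that carries the motif, with the ISRE core, or cores where they overlap, in capitals and 6 flanking bases on each side.
Ifit1 (chr19:34640779-34640800): agactgGAAAGTGAAActgaag
Ifit1 (chr19:34640798-34640819): cagtgaGAAACTGAAActgaga
Isg15 (chr4:156200869-156200902): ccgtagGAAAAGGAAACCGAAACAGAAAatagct
Bst2 (chr8:71537581-71537608): ttccagGAAAATGAAACTGAAAggctgc
Oas1a (chr5:120907524-120907551): tctcggGAAATGGAAACTGAAAatctac
Oas1g (chr5:120887610-120887637): tctcggGAAATGGAAACTGAAAatctac
Trim30a (chr7:104446108-104446129): aactgaGAAAAAGAAActaaaa
Trim30a (chr7:104465214-104465235): aactgaGAAAAAGAAActaaag
Ifit3 (chr19:34583367-34583388): gaagagGAAAGTGAAActtacc
Ifit3b (chr19:34607763-34607784): gaagagGAAAGTGAAActtacc
Ifit3 (chr19:34583401-34583422): aaagtaGAAACTGAAAcagact
Ifit3b (chr19:34607797-34607818): aaagtaGAAACTGAAAcagact

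The Ifit1 sites begin 104 and 85 bases before the start. Isg15 carries 3 overlapping cores beginning 78 bases before its start, and Bst2 and Oas1a carry 2 overlapping cores each. The lines for Oas1a and Oas1g carry the same letters, as do those for Ifit3 and Ifit3b, which are neighbouring copies of one another. Whole promoters are shown for the member with the largest called fold change in each comparison (Ifitm1 for B64 and Epsti1 for B04 against the parental line, Ifit1 between clones) and for Slfn5, which was nearly silent. ISRE cores are in capitals, on the gene's strand.
Ifit1 promoter (chr19:34640639-34640938, plus strand): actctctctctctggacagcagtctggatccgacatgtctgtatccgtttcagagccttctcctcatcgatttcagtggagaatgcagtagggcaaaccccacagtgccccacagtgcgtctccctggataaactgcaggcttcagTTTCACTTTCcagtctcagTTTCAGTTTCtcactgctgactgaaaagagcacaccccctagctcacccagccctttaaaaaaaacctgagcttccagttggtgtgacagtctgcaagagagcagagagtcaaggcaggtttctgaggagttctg
Ifitm1 promoter (chr7:140967826-140968125, plus strand): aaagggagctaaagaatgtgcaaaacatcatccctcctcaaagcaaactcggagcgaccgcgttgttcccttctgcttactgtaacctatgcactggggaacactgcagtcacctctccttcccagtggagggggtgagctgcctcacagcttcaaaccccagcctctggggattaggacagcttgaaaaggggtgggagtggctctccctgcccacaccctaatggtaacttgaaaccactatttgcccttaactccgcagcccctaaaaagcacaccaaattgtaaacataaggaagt
Epsti1 promoter (chr14:77903989-77904288, plus strand): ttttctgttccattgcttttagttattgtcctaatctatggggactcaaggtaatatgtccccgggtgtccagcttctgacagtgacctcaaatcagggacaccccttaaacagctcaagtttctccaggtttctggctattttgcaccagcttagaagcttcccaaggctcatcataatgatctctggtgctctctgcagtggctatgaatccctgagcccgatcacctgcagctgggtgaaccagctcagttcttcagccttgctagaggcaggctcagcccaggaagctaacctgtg
Slfn5 promoter (chr11:82951852-82952151, plus strand): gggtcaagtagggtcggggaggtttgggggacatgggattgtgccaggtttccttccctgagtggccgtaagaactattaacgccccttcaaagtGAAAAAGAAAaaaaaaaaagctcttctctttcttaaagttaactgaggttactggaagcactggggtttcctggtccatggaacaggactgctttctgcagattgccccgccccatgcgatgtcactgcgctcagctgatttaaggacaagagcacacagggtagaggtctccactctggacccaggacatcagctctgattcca

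No ISRE core lies in the windows of Ifitm1 and Epsti1, whereas the window of Slfn5 holds 1, which begins 155 bases before the RefSeq start. In GENCODE, Ifitm1 begins at position 140967221 and Slfn5 at 82951349, each upstream of the whole window shown. The sequence before these GENCODE starts was not searched, so an ISRE core there would have been missed. The core was found in 13 of 32 members called higher in B64 and in 3 of 10 that were tested and not called, and in 7 of 16 members called lower in B04, 2 of 5 called higher and 7 of 21 not called. These shares were not tested against each other.

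Most of the antiviral panel was higher in B64. Of 53 tested members, 41 were called higher in B64 than in the parental line (77.4%; adjusted p under 0.05 in DESeq2) and 0 were called lower, whereas over all genes tested 8.87% were called higher and 7.45% lower. The median log2 fold change of the members was 0.59, with a range of -0.09 to 1.42, beside a median of -0.00 over all 13218 genes. The edgeR quasi-likelihood test called 43 members higher and 0 lower, and at an unadjusted p under 0.05 DESeq2 gave 43 higher and 0 lower. Summed over the panel, normalized counts were 70916 and 67645 in parental libraries and 104894 and 100166 in B64. A block for fragment-length class left 21 higher calls, and leaving out B64 A or parental B left 25 or 26.

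B04 was divided and leaned the other way. Against the parental line 19 of 53 members were called lower and 5 higher, compared with 12.9% and 11.2% of all genes tested, so that the share of lower calls (35.8%) was above the background and the share of higher calls (9.43%) near it. The median log2 fold change was -0.20, beside 0.00 over all genes. The 5 higher members were Ifitm1, Ifitm2, Ifitm3, Uba7 and Epsti1. With fragment-length class as a block 11 members were called lower and 2 higher, without parental A 11 were lower, and without B04 A and without B04 B 3 and 2 were higher.

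The clones were also compared directly, which tests the difference of their changes. B64 exceeded B04 in 42 of 53 members and was lower in 1, Ifitm2, whereas 13.1% of all genes were called higher and 11.1% lower. The median was 0.84 beside 0.00 over all genes. Fragment-length class as a block left 37 higher calls.

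**Figure D1:**
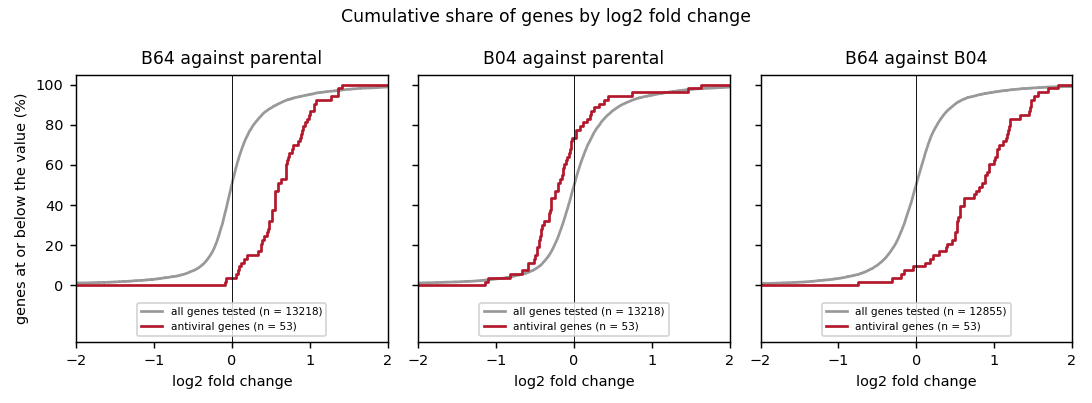
Cumulative share of genes (y axis, %) at or below each log2 fold change (x axis, cut at -2 and 2) for the 53 tested antiviral genes (red) and for all genes tested (grey) in the 3 comparisons. The red curve lies to the right of the grey curve in B64 against parental (median 0.59) and in B64 against B04 (median 0.84), and mostly to its left in B04 against parental (median -0.20).

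Among the IFIT proteins, IFIT1 binds viral RNA whose 5′ end lacks the host's cap methylation. The 4 IFIT genes measured here lie on chromosome 19 between positions 34550694 and 34650009 (mm10). Ifit1 (ENSMUSG00000034459) had 394 and 406 normalized counts in parental cells, 186 and 185 in B04, and 658 and 652 in B64. The 3 lines did not overlap. Ifit1 was thus higher in B64 by 0.71 ± 0.15 on the log2 scale (adjusted p = 2.23e-05) and lower in B04 by -1.11 ± 0.16 (adjusted p = 7.79e-11), and its 3.53-fold difference between clones (log2 1.82 ± 0.15, adjusted p = 1.18e-29) was the largest of the panel. When fragment-length class entered as a block, the adjusted p of the B64 change was 0.403. Ifit2, from the same cluster, had 431 and 413 normalized counts in parental cells, 531 and 521 in B04 and 410 and 510 in B64, and was called in none of the comparisons.

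Ifit3 showed 114 and 95.4 normalized counts in parental cells, 96.7 and 93.6 in B04, and 199 and 239 in B64. Its near copy Ifit3b showed 26.7 and 36.5, then 33.7 and 25.4, then 81.6 and 82.0 in the same order. Both were higher in B64, by 1.06 ± 0.26 (adjusted p = 0.000489) and 1.37 ± 0.43 (adjusted p = 0.0126), and neither was called in B04. The 2 genes share 41.1% of the 75-base words of Ifit3 transcripts and 35.7% of those of Ifit3b, so RSEM divided reads between them and their separate values are uncertain. The Ifit3b call also depended on single libraries, and it was lost when either library of B64 or of the parental line was left out.

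ISG15 is attached to target proteins by the activating enzyme UBA7 and, in mice, the ligase HERC6, and is removed by USP18, which also dampens signalling at the type I interferon receptor. Isg15 (ENSMUSG00000035692) had 1986 and 1966 normalized counts in parental cells, 1270 and 1213 in B04 and 2807 and 2858 in B64. Usp18 (ENSMUSG00000030107) had 1700 and 1663, 843 and 675, and 2666 and 2282 in the same order. For both genes the clones lay on opposite sides of the parental line, without overlap. Usp18 had the largest reduction of the panel in B04, to 0.452 times the parental level (log2 -1.15 ± 0.11, adjusted p = 6.36e-23), and was 3.26-fold higher in B64 than in B04. Isg15 was lower in B04 by -0.67 ± 0.08 (adjusted p = 2.85e-15) and higher in B64 by 0.52 ± 0.08 (adjusted p = 8.15e-10).

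The conjugating enzymes were called higher in B64, as Isg15 was, but did not follow Isg15 in B04. Uba7 had 145 and 131 normalized counts in parental cells, 222 and 239 in B04 and 288 and 233 in B64, and was called higher in both clones (0.74 ± 0.22 in B04 and 0.92 ± 0.22 in B64), with no call between clones (0.18 ± 0.21). Herc6 was called higher in B64 alone (0.55 ± 0.14) and stood at -0.02 ± 0.15 in B04, and the clones differed by 0.57 ± 0.14 (adjusted p = 0.000734). The B64 call of Herc6 was kept in 9 of 17 alternative settings, and its call between clones in 11. Of the 75-base words of Herc6, 11.1% also occur in Gm45193, so its count is uncertain to that extent. In all, 4 of 4 genes of this group were higher in B64, while in B04 2 were lower and 1 higher.

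The enzymes that sense or edit double-stranded RNA formed the group in which B04 was most often lower, in 6 of 8 genes. The 2'-5' oligoadenylate synthetases make the messenger that activates RNase L, and 6 genes of this family were measured, all on chromosome 5. Oas1a had 1791 and 1751 normalized counts in parental cells, 1340 and 1278 in B04, and 3067 and 2789 in B64. Oas1g, which shares 36.9% of its 75-base words with Oas1a, had 989 and 885, 806 and 697, and 1645 and 1452. They moved alike, with log2 fold changes of 0.73 ± 0.08 and 0.72 ± 0.11 in B64 and -0.44 ± 0.08 and -0.32 ± 0.12 in B04, and reads divided between the copies leave their separate values uncertain.

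Oasl1 and Oasl2 encode relatives of the synthetases that also carry ubiquitin-like domains. Oasl1 was the highest of the group per length, with a mean TPM of 70.5, 54.1 and 104 in parental cells, B04 and B64, and its normalized counts were 2619 and 2594, 1900 and 1909, and 3777 and 3902. Oasl2 had 1582 and 1279, 1106 and 987, and 2751 and 2552. Each was called in opposite directions in the clones, and the difference between clones was 1.01 ± 0.07 for Oasl1 and 1.34 ± 0.11 for Oasl2. Oas3 was different in that only B64 departed from the parental line, with 1193 and 1106 normalized counts in parental cells, 1205 and 1028 in B04 and 2529 and 2326 in B64 (1.08 ± 0.10, adjusted p = 2.79e-25). Oas2 was likewise called higher in B64 (0.63 ± 0.13) and not in B04 (0.03 ± 0.13).

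Eif2ak2, which encodes the translation-blocking kinase PKR, and Adar, which encodes the adenosine deaminase that edits double-stranded RNA, showed the reverse arrangement. Both were called lower in B04 (-0.31 ± 0.10 and -0.48 ± 0.08) and not called in B64 (0.19 ± 0.10 and 0.05 ± 0.08). Adar had 2339 and 2293 normalized counts in parental cells, 1750 and 1576 in B04, and 2382 and 2416 in B64, so B04 lay below all other libraries. Of the annotated exon bases of Adar, 16.8% overlap Chrnb2 on the other strand, and whether the libraries kept strand is not stated.

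Among 8 further nucleic acid enzymes, 7 were tested, 5 were higher in B64 and 3 were lower in B04. Slfn2, a schlafen family member, had 174 and 211 normalized counts in parental cells, 271 and 252 in B04, and 515 and 482 in B64, which gave the largest B64 change of the group (1.37 ± 0.18, adjusted p = 8.71e-13). Samd9l, an RNA-binding growth inhibitor, ran 1243 and 1047, 887 and 832, and 1696 and 1488, and was called higher in B64 (0.48 ± 0.11) and lower in B04 (-0.41 ± 0.11). The helicase Ddx60 (0.70 ± 0.23), the exonuclease Isg20 (0.56 ± 0.18) and the helicase-like Znfx1 (0.38 ± 0.12) were higher in B64 and not called in B04. Pnpt1, a mitochondrial ribonuclease and the highest of the group per length, had 1499 and 1499, 1231 and 1196, and 1401 and 1424 normalized counts, and was called lower in B04 (-0.30 ± 0.09) and not called in B64 (-0.09 ± 0.09). Helz2, a nuclear helicase, was also called lower in B04 (-0.42 ± 0.10) and not in B64 (0.09 ± 0.09). Slfn5 had at most 3 counts in any library.

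Mx proteins are dynamin-like GTPases that trap viral nucleocapsids, and viperin (Rsad2) with its neighbour Cmpk2 produces a nucleotide that terminates viral RNA chains. Cmpk2 had 183 and 160 normalized counts in parental cells, 185 and 201 in B04, and 310 and 331 in B64. Mx2, which is annotated as a polymorphic pseudogene, had 69.6 and 56.1, 35.6 and 53.9, and 130 and 119. Cmpk2 (0.90 ± 0.20), Rsad2 (0.96 ± 0.25) and Mx2 (0.99 ± 0.34) were called higher in B64, Mx1 was not (0.69 ± 0.82), and none of the 4 was called in B04. Mx1 was at 6.7 to 26.3 normalized counts in all libraries, at which depth a change of the size of Mx2 was not detectable. The Mx2 call against the parental line was among the least stable, and was kept in 6 of 17 alternative settings, compared with 13 of 17 for its 1.48 ± 0.35 difference between clones.

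**Figure D2:**
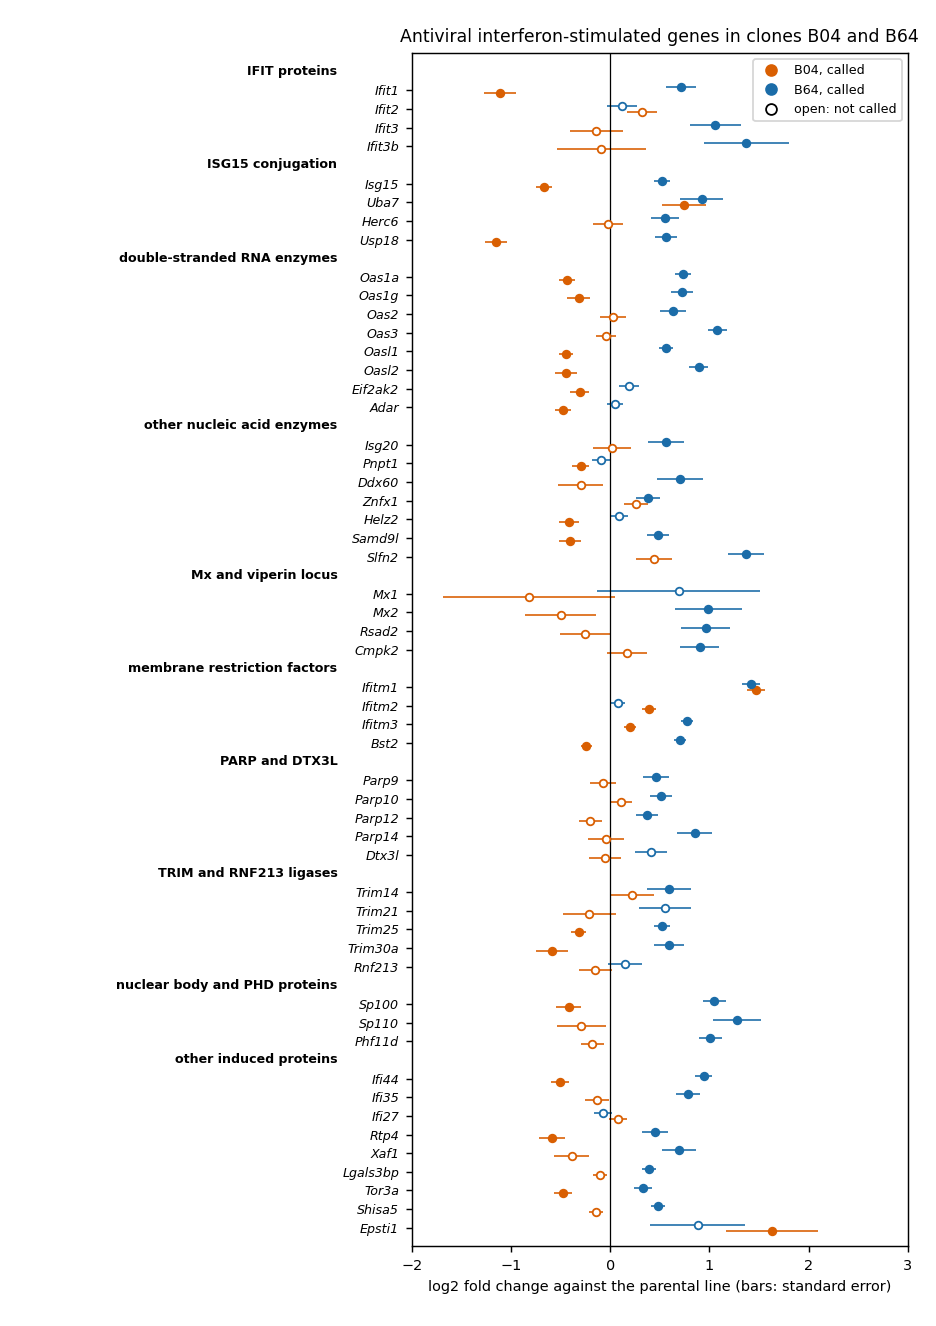
Log2 fold change against the parental line (x axis; bars are the standard error) for the 53 tested antiviral genes by role, in B04 (orange) and B64 (blue), with filled points where DESeq2 called the gene. Nearly all blue points lie right of 0 (51 of 53), whereas the orange points lie on both sides, with 39 of 53 below 0.

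The membrane restriction factors include the 3 members with the highest mean TPM, Ifitm3, Bst2 and Ifitm2, and were the 1 role group with a median log2 fold change above 0 in B04 (0.30). The 3 IFITM proteins, which block fusion of viral and endosomal membranes, are encoded together on chromosome 7. Ifitm3 (ENSMUSG00000025492) had 9489 and 9568 normalized counts in parental cells, 10866 and 11095 in B04, and 17047 and 15483 in B64. It was higher in B64 by 0.77 ± 0.06 (adjusted p = 1.57e-37) and slightly higher in B04, by 0.20 ± 0.06 (adjusted p = 0.00324). The B04 call was kept in 11 of 17 alternative settings. It was lost with fragment-length class as a block, with an effective-length offset, in each limma fit and without B04 B.

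Ifitm1 (ENSMUSG00000025491) was higher than in parental cells by a like amount in both clones. It had 685 and 700 normalized counts in parental cells, 1864 and 1961 in B04, and 1841 and 1872 in B64. These values gave 2.76-fold (log2 1.47 ± 0.09, adjusted p = 2.5e-56) and 2.68-fold (1.42 ± 0.09, adjusted p = 2.69e-52) increases, and the difference between clones was -0.04 ± 0.09. Ifitm2 had 2764 and 2680, 3486 and 3662, and 2959 and 2803 normalized counts. It was higher in B04 (0.39 ± 0.07, adjusted p = 5.04e-07), not called in B64 (0.08 ± 0.07), and the 1 member called lower in B64 than in B04 (-0.31 ± 0.07, adjusted p = 0.000114). Its count is uncertain, since 33.4% of its 75-base words also occur in the overlapping gene Gm45717 on the same strand. Bst2 (ENSMUSG00000046718) encodes tetherin, which holds budding virions at the cell surface, and ran against the IFITM genes in B04. It had 6622 and 6916 normalized counts in parental cells, 5793 and 5677 in B04, and 11126 and 10827 in B64 (-0.24 ± 0.06 in B04, 0.70 ± 0.06 in B64 and 0.94 ± 0.06 between clones).

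**Figure D3:**
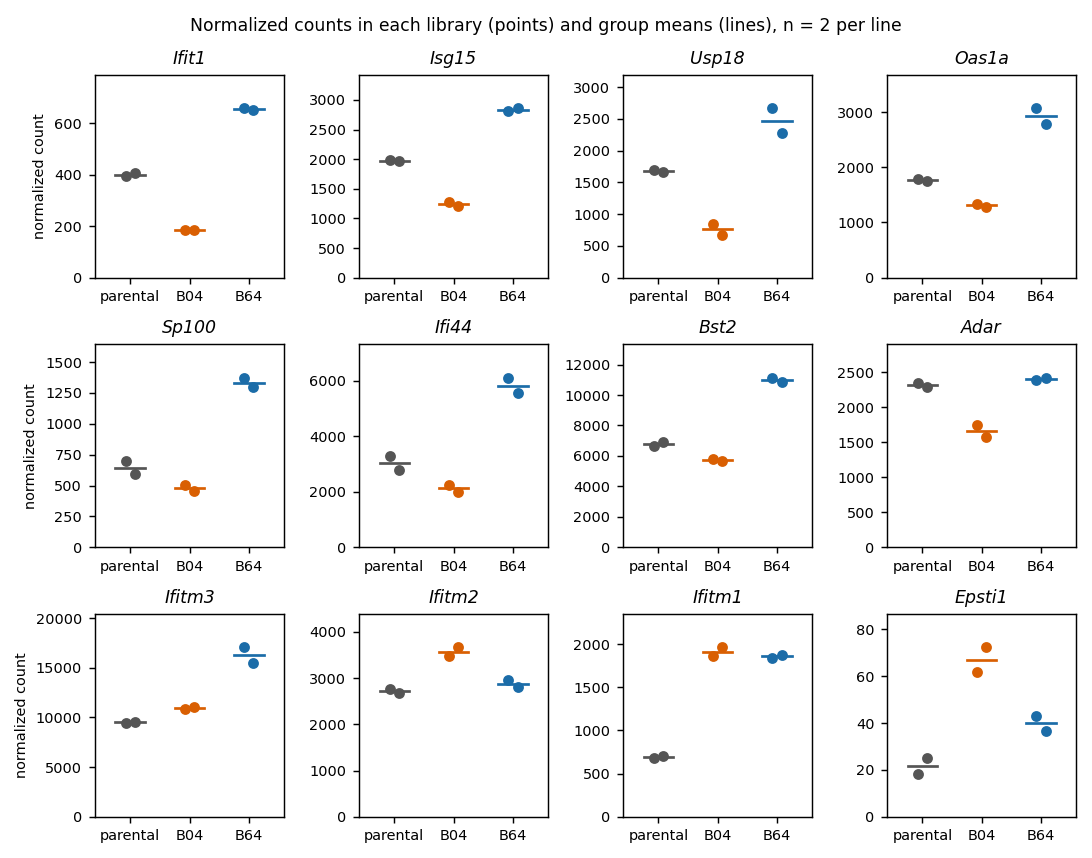
Normalized counts (y axes, from 0) of 12 antiviral genes in each library, with points for libraries and lines for the mean of 2 libraries. Ifit1, Isg15, Usp18, Oas1a, Sp100, Ifi44 and Bst2 step from B04 over parental to B64, Adar departs in B04, Ifitm1 is alike in both clones (1857 and 1913 on average against 692), and Ifitm2 and Epsti1 are highest in B04.

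PARP9 and its partner DTX3L form a complex that modifies histones and viral proteins, and PARP10, PARP12 and PARP14 are interferon-induced ADP-ribosyltransferases. All 5 had positive fold changes in B64, from 0.37 to 0.85, and 4 were called, while none of the 5 was called in B04 (-0.20 to 0.11). Parp10, the highest per length, had 1001 and 982 normalized counts in parental cells, 1173 and 971 in B04, and 1438 and 1384 in B64 (0.51 ± 0.11, adjusted p = 5.08e-05). The clones differed in all 5 genes, most in Parp14 (0.89 ± 0.18). Dtx3l missed the threshold against the parental line (0.41 ± 0.16, adjusted p = 0.0617), and Dtx3l and Parp9 overlap on opposite strands over 8% of the exon bases of Dtx3l.

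TRIM proteins and RNF213 are ubiquitin ligases. Trim25, which activates the RNA sensor RIG-I, had 2833 and 2506 normalized counts in parental cells, 2170 and 2094 in B04, and 3991 and 3643 in B64. Trim30a had 585 and 447, 327 and 361, and 823 and 726. Both were called higher in B64 (0.52 ± 0.08 and 0.59 ± 0.15) and lower in B04 (-0.32 ± 0.08 and -0.59 ± 0.16). Trim14 was called higher in B64 alone (0.59 ± 0.22, adjusted p = 0.0474), a call kept in 2 of 17 alternative settings, and 31.3% of its exon bases overlap Nans on the other strand. Trim21, the cytosolic antibody receptor, was not called against the parental line in either clone and differed between clones by 0.77 ± 0.27 (adjusted p = 0.0201). That call between clones was kept in 6 of 17 alternative settings. Rnf213 was called in no comparison.

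The nuclear body and PHD finger genes gave the largest median change of any role group in B64, 1.05 over 3 genes, all called. Sp100, a scaffold of PML bodies, had 698 and 591 normalized counts in parental cells, 508 and 452 in B04, and 1372 and 1295 in B64. It was higher in B64 by 1.05 ± 0.12 (adjusted p = 6.44e-16), lower in B04 by -0.42 ± 0.13 (adjusted p = 0.00514), and 2.78-fold higher in B64 than in B04. Sp110 ran 159 and 120, 121 and 106, and 390 and 286, with a change of 1.28 ± 0.24 in B64. It shares 24.9% of its 75-base words with other genes, most with Gm16026, so its level is uncertain. Phf11d had 632 and 562, 508 and 548, and 1211 and 1185 (1.01 ± 0.12 in B64). Neither Sp110 nor Phf11d was called in B04.

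Of 9 other induced proteins, 7 were higher in B64 and 3 lower in B04. Ifi44, a cytoplasmic protein that restrains proliferation, had 3279 and 2798 normalized counts in parental cells, 2258 and 1994 in B04, and 6107 and 5553 in B64, and its 2.74-fold difference between clones (log2 1.45 ± 0.09) had an adjusted p of 2.72e-58. Rtp4, a receptor-transporting protein, had 590 and 547, 379 and 375, and 792 and 759. Tor3a, a torsin ATPase, had 1194 and 1220, 865 and 864, and 1540 and 1491. Rtp4 and Tor3a were lower in B04 by -0.59 ± 0.13 and -0.48 ± 0.09 and higher in B64 by 0.45 ± 0.13 and 0.33 ± 0.09. Ifi35 (0.78 ± 0.12), Xaf1 (0.69 ± 0.17), Shisa5 (0.48 ± 0.07) and Lgals3bp (0.39 ± 0.07) were called in B64 and not in B04. Of the exon bases of Ifi35, 16.8% overlap Gm11626 on the other strand, and 10.5% of the 75-base words of Rtp4 occur in Gm45338, so both counts are uncertain to that extent.

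Ifi27 and Epsti1 departed from this pattern. Ifi27, which encodes a mitochondrial protein, had 1912 and 2000 normalized counts in parental cells, 2112 and 2032 in B04 and 1725 and 2000 in B64. It was called in no comparison (-0.07 ± 0.09 in B64 and 0.08 ± 0.09 in B04). Epsti1, named here because it is 1 of the 5 genes higher in B04, was scarce, with 18.1 and 25.3 normalized counts in parental cells, 62.0 and 72.3 in B04, and 43.0 and 36.8 in B64. Its B04 change was 1.63 ± 0.46 (adjusted p = 0.00314) and its B64 change, 0.88 ± 0.48, was not called. The B04 call was kept in 13 of 17 alternative settings. It was lost with fragment-length class as a block and without B04 A, B04 B or parental A.

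Across the panel the lines fell into 1 main order. In 38 of 53 members (71.7%) the group means ran B64 over parental over B04, an order found in 17.7% of all genes tested. For 15 members both steps were called, higher in B64 and lower in B04, whereas 1.15% of all genes tested were called in this way. The 15 were Ifit1, Isg15, Usp18, Oas1a, Oas1g, Oasl1, Oasl2, Samd9l, Bst2, Trim25, Trim30a, Sp100, Ifi44, Rtp4 and Tor3a. With fragment-length class as a block 6 of them kept both calls (Isg15, Usp18, Oas1a, Oasl1, Bst2 and Ifi44), without parental A 7 did, those 6 and Ifit1, and Oasl1 alone kept both under all 17 alternative settings. Without B64 A 10 kept both. A further 23 members were called higher in B64 alone, 4 were called lower in B04 alone (Eif2ak2, Adar, Pnpt1 and Helz2), 2 were called higher in B04 alone (Ifitm2 and Epsti1), and 3 were called higher in both clones (Uba7, Ifitm1 and Ifitm3). The remaining 6 tested members, Ifit2, Mx1, Dtx3l, Trim21, Rnf213 and Ifi27, were called in neither clone against the parental line. Because both comparisons use the same parental libraries, a parental library that stood apart would move both.

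Of the 41 higher calls in B64, 12 were kept under all 17 alternative settings, namely Oas1a, Oas1g, Oas3, Oasl1, Slfn2, Ifitm1, Ifitm3, Bst2, Sp100, Phf11d, Ifi35 and Shisa5. For B04, 8 of 24 calls were kept throughout, 6 lower (Ifit1, Isg15, Usp18, Oasl1, Adar and Rtp4) and 2 higher (Ifitm1 and Ifitm2). Of the 43 calls between clones, 26 were kept throughout.

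Compared per length, the tested members spanned from Ifitm3, with a mean TPM of 1200 in parental cells, 1368 in B04 and 1917 in B64, to Mx1, at 0.255, 0.155 and 0.50. Bst2 came second, at 664, 565 and 1030. The upper end also held Ifitm2 (364, 470 and 358), Isg15 (208, 131 and 284), Ifi27 (184, 200 and 165) and Ifitm1 (90.0, 239 and 218). The TPM of the panel summed to 3889 and 3673 in the parental pair, 3998 and 3764 in the B04 pair and 5713 and 5558 in the B64 pair. On this scale the B04 libraries overlapped the parental range, whereas their summed normalized counts, 64383 and 61643, lay below both parental sums.

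**Figure D4:**
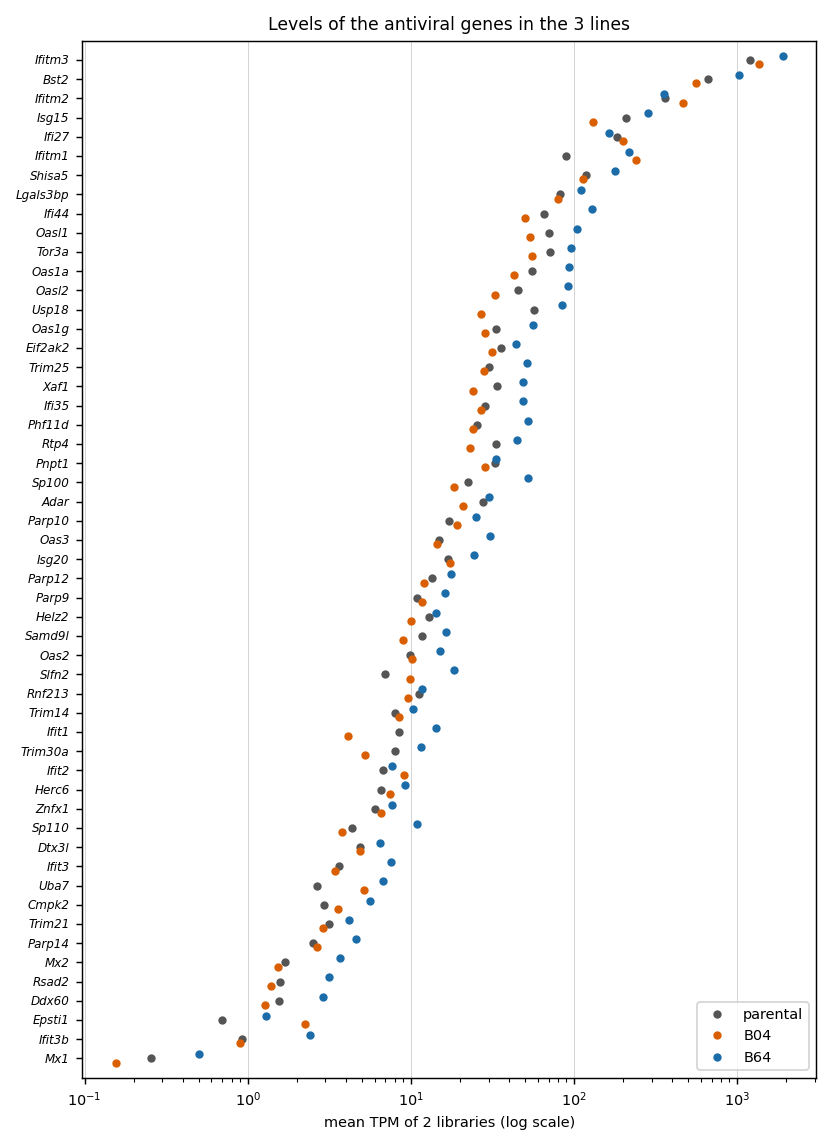
Mean TPM of 2 libraries (x axis, log scale) for the 53 tested antiviral genes, ordered by their mean over all libraries, in parental cells (grey), B04 (orange) and B64 (blue). Levels span from under 1 for Mx1 to over 1000 for Ifitm3, and blue points lie furthest to the right for most genes.

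Genes upstream of the panel were examined next. Of 14 genes for interferon receptors and signalling, 2 were called higher in B64 and 0 lower (also 0 lower with edgeR and at an unadjusted p under 0.05), and in B04 1 was higher and 2 lower, beside shares of all genes of 8.87% and 7.45% for B64 and 11.2% and 12.9% for B04. Irf7, a transcription factor that amplifies type I interferon responses, had 1194 and 1218 normalized counts in parental cells, 959 and 853 in B04, and 2893 and 2696 in B64 (1.21 ± 0.09 in B64 and -0.41 ± 0.09 in B04). Stat2 was higher in B64 (0.51 ± 0.12) and Irf9 lower in B04 (-0.40 ± 0.10). Irf1, a factor induced most strongly by interferon gamma, ran the other way, with 338 and 376 normalized counts in parental cells, 558 and 630 in B04, and 410 and 386 in B64 (0.73 ± 0.15 in B04, adjusted p = 1.17e-05). The receptor genes Ifnar1, Ifnar2, Ifngr1 and Ifngr2 and the kinase genes Jak1 and Tyk2 were called in no comparison. The kinase gene Jak2 was called between clones only, higher in B64 (0.30 ± 0.09). Of 21 interferon genes, all had 0 counts in parental and B04 libraries and 20 had 0 in each B64 library, where Ifnb1 had 1 count.

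Of 28 sequence relatives that were not part of the panel, 16 were tested against the parental line. By DESeq2, 6 (37.5%) were higher in B64 and 3 (18.8%) in B04, and 0 were lower in either. Over all genes tested, 8.87% were called higher and 7.45% lower in B64, and 11.2% higher and 12.9% lower in B04. At an unadjusted p under 0.05, and likewise with edgeR, 0 relatives were lower in B64 and 1 in B04. Ifi27l2a, a relative of Ifi27, had 1181 and 1101 normalized counts in parental cells, 1403 and 1559 in B04, and 3801 and 3047 in B64 (1.59 ± 0.10 in B64 and 0.38 ± 0.11 in B04), whereas Ifi27 itself was not called. Phf11b, a neighbour of Phf11d, was higher in both clones (1.69 ± 0.45 and 1.37 ± 0.45). The schlafen gene Slfn9 was higher in B04 (0.38 ± 0.09) and not called in B64 (-0.11 ± 0.09), in contrast to Slfn2.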

How the data were processed

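RNA-seq libraries of the parental CT26 line and of clones B04 and B64 (2 each) were grouped by sample title. The authors aligned reads to mm10 with STAR and quantified genes with RSEM, and they deposited an RSEM expected count for each gene, in which reads matching several genes are divided among them. The TPM values, also deposited, were scaled by the authors to effective gene length and library total. FPKM was not used. The annotation release and strandedness are not given in the sources used here. Gene symbols and coordinates are from GENCODE M21 (99.7% of 53801 identifiers matched) and promoters from RefSeq.

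After rounding, expected counts entered DESeq2 (1.42.0, under R 4.3.3; Wald test, all 6 libraries, line as the only term, independent filtering, no shrinkage), and a call is an adjusted p (Benjamini-Hochberg, over all genes tested) under 0.05. Normalized counts are counts divided by DESeq2 size factors. Values after ± are standard errors, with n = 2 per line. Alternatives were edgeR (version 4.0.16), limma (version 3.58.1) on log2(TPM + 1) or log2(TPM + 0.1), TMM scaling, other filters, an effective-length offset, fragment-length class or replicate letter as a block, and leaving out each library. Shared sequence was measured as 75-base words of GENCODE transcripts found in other genes. The fits were tested on simulated data. The members and lists were chosen with earlier results of these data known. A gene of the signalling list is not reported here. Values in every library are given for the 6 called members with the largest change in each comparison (mean normalized count at least 50), members called in opposite directions, the highest TPM of each role group and near-identical pairs. Correlations of same-letter deviations from the line means were 0.11, 0.01 and -0.05, so letters were not treated as pairs.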

Additional observations from a re-analysis of the deposited data

Results flagged for a closer look

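The effects of the 2 clones against the parental line differed in most members. By the test of the difference itself (DESeq2, B64 against B04), 42 members were higher in B64 and 1, Ifitm2, was lower. For 15 members the clones lay on opposite sides of the parental line with both changes called. With fragment-length class as a block 6 of the 15 kept both calls, without parental A 7, and under all 17 alternatives 1, Oasl1. The log2 difference between clones in these was 1.82 for Ifit1, 1.70 for Usp18, 1.47 for Sp100, 1.45 for Ifi44, 1.34 for Oasl2, 1.19 for Isg15, 1.17 for Trim30a, 1.16 for Oas1a, 1.04 for Oas1g, 1.04 for Rtp4, 1.01 for Oasl1, 0.94 for Bst2, 0.89 for Samd9l, 0.84 for Trim25 and 0.81 for Tor3a. With 2 libraries per line, single libraries that stand apart within a line were not looked for.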

How the results depend on the processing

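The median log2 fold change of the members kept its direction in each comparison under all 17 alternatives. The number of members called higher in B64 against the parental line, 41 as reported, was 21 with fragment-length class as a block, 17 and 15 with limma on log2(TPM + 0.1) and log2(TPM + 1), and 25 to 40 when a library was left out, lowest without B64 A and without parental B (26). The number called higher in B04, 5 as reported, was 8 with edgeR, 2 with fragment-length class as a block, and 2 to 5 when a library was left out. The number called lower in B04, 19 as reported, was 11 with fragment-length class as a block, 6 with limma at either pseudocount, 8 with limma on genes with a mean TPM over 1, and 11 to 18 when a library was left out, lowest without parental A. The median in B04, -0.20 as reported, was -0.09 with limma on log2(TPM + 1), with or without the TPM filter. Between clones, 26 instead of 42 members were higher with limma at either pseudocount without the filter, and the median, 0.84 as reported, was 0.63 and 0.71 with limma on log2(TPM + 1) without and with the filter. The number called higher in B64 and lower in B04, 15 as reported, was followed through the same settings after seeing the data. It was 6 with fragment-length class as a block, 3 and 2 with limma on log2(TPM + 0.1) and log2(TPM + 1), 7 with limma on genes with a mean TPM over 1, and 7 to 14 when a library was left out, lowest without parental A. A pseudocount by its construction shrinks the changes of low genes; the cause of the other changes was not tested. Small changes that were not called turned sign in Pnpt1 in B64 (0.03 with each limma fit), in Oas3 and Ifit3b in B04 with fragment-length class as a block (0.07 and 0.09), and when a library was left out in Ifi27 in B64 (-0.18 to 0.03) and in Oas3 (-0.16 to 0.07), Ifit3b (-0.31 to 0.15) and Parp10 (-0.03 to 0.24) in B04.

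With the replicate block, 38 members were higher in B64 and 0 lower, 5 higher and 19 lower in B04, and 42 higher and 1 lower between clones, with medians of 0.60, -0.20 and 0.84. Among the genes whose values are given, the block ended the B64 calls of Mx2 and Ifit3b. The letters share no stated pairing. Counting depth limits Slfn5, Mx1, Epsti1 and Ifit3b. With 2 libraries per line, and 1 clone per resistant line, differences between clones cannot be told apart from differences between any single cells of CT26.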
